A study of Mus musculus with 9 samples.

Results

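Hox genes encode homeodomain transcription factors that give cells of the hindbrain, spinal cord and trunk mesoderm their position along the head to tail axis. They lie in 4 clusters, a to d, in which low paralogue numbers are expressed towards the head and high numbers towards the tail. Retinoic acid, Wnt and FGF signals open the clusters in development, partly through Cdx factors, and Polycomb complexes keep unused members silent. The members described here are 38 protein-coding Hox genes, taken by family name from 24100 genes in the table. They were chosen with earlier results of these data known. They are 10 of cluster a (chromosome 6), 10 of cluster b (chromosome 11), 9 of cluster c (chromosome 15) and 9 of cluster d (chromosome 2), and paralogues are grouped below as 1 to 3, 4 to 8 and 9 to 13.

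Poly(A) RNA came from cells, neural by label, made from mouse embryonic stem cells that stably carried a PiggyBac transgene for histone H4 with an HA tag. The tagged histone was wild type in H4WT, had arginine for lysine 91 in H4K91R, and had glutamine there in H4K91Q, with 3 libraries per group. The labels name neither the transgene's promoter nor a deletion of the cells' own H4 genes, and they do not say whether the libraries of a group came from separate lines or differentiations. P-values therefore measure only the spread between these libraries, which may be technical. Total counts ran from 8970553 to 28887501 per library, and the deepest was H4WT replicate 2. Levels are CPM, counts divided by library size in units of 1e6 counts, after TMM scaling, which corrects for RNA composition. A gene was called when its edgeR quasi-likelihood p, Benjamini-Hochberg adjusted over 14761 tested genes, was below 0.05. Changes are log2 differences with their standard error.

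Of the 38 members, 32 had enough counts to be tested. The other 6 were Hoxa11, Hoxa13, Hoxb1, Hoxc11, Hoxc12 and Hoxd12, of which all but Hoxb1 belong to paralogues 9 to 13. Hoxb1, a gene of the hindbrain, had 7 counts over the 3 H4WT libraries, 14 over H4K91R and 26 over H4K91Q. Hoxa11, known from limb and kidney, had 11, 3 and 11 counts, and Hoxa13 6, 5 and 11. Hoxc11 had 2, 0 and 1 counts, Hoxc12 4, 1 and 3, and Hoxd12 1, 0 and 0. A count of 0 allows up to 3 counts, or 0.111 to 0.367 CPM depending on the library. Differences between the groups in these 6 genes were not tested.

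Divided by exon length, so that genes can be compared, the highest H4WT level was that of Hoxb9, at 36.1 CPM per kb, and it was followed by Hoxb8 at 14.3, Hoxb6 at 13.5, Hoxb7 at 8.96 and Hoxb4 at 8.43. Hoxa5 led cluster a with 7.01 CPM per kb, Hoxc6 led cluster c with 5.23 and Hoxd8 led cluster d with 4.78. In H4K91R the order at the top was Hoxb8 at 40.7, Hoxb9 at 32.7, Hoxa5 at 29.6 and Hoxb6 at 28.0 CPM per kb. H4K91Q gave Hoxb8 29.9, Hoxb9 26.3, Hoxb6 22.3 and Hoxa5 22.0. The leading Hox gene was thus a paralogue 9 gene in H4WT and a paralogue 8 gene in both mutants. Exon length is the union over all annotated transcripts, and the transcripts in use were not measured. Several members overlap in the annotation on 1 strand (Hoxa3 with Hoxa4, Hoxa5 and Hoxa6, Hoxb3 with Hoxb4, Hoxd3 with Hoxd4, and Hoxd10 with Hoxd11), and how their shared reads were divided is not known.

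**Figure D1:**
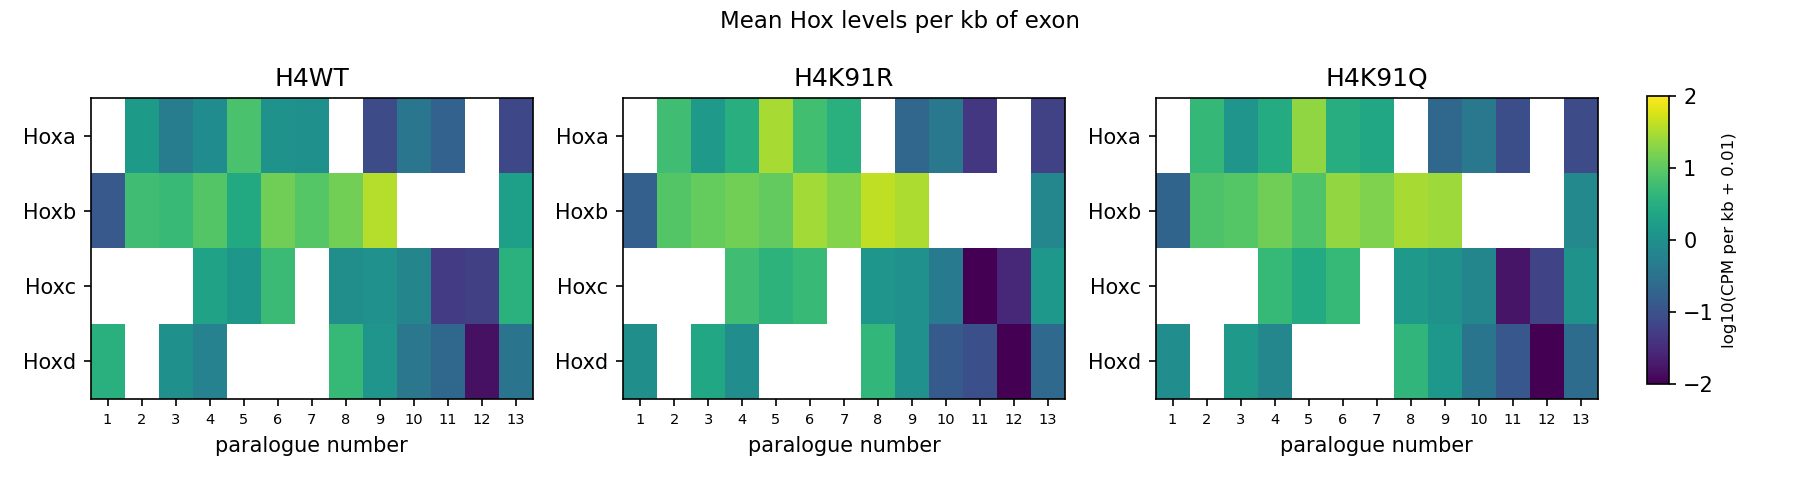
Mean level of each of the 38 members per kb of exon in the 3 groups, as log10 of CPM per kb plus 0.01, with clusters in rows and paralogue numbers in columns. White cells hold no gene of this set. Hoxb9 is the brightest cell in H4WT, at 36.1 CPM per kb, and Hoxb8 in H4K91R and H4K91Q, at 40.7 and 29.9.

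Against H4WT, Hox genes of paralogues 2 to 8 were mostly higher in both mutants, and most of paralogues 9 to 13 were not. Of the 3 tested paralogue 13 genes Hoxb13 and Hoxc13 were lower and Hoxd13 was not called. In H4K91R 17 of the 32 tested members rose, beside 20.9% of all tested genes, and 4 fell, beside 25.1%, where 46.0% of all tested genes were called in either direction. In H4K91Q 18 rose, beside 22.5% of all tested genes, and 4 fell, beside 23.8%, with 46.3% called in either direction. Both comparisons use the same H4WT libraries. The median log2 change of the 32 was 0.69 in H4K91R and 0.60 in H4K91Q, where the medians over all tested genes were -0.03 and 0.01. In the joint test over the 3 groups 22 members were called, beside 50.6% of all genes. The libraries of H4K91R and H4WT did not overlap for 17 tested members that were higher (25.0% of all tested genes) and for 4 that were lower (30.1%). Those of H4K91Q and H4WT did not overlap for 17 that were higher (27.4%) and 4 that were lower (27.7%).

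By paralogue class, 5 of 6 tested genes of paralogues 1 to 3 rose in H4K91R and 1, Hoxd1, fell, with a median of 1.25. Of the 15 genes of paralogues 4 to 8, 11 rose and 0 fell, with a median of 1.5. Of 11 tested genes of paralogues 9 to 13, 1 rose and 3 fell, with a median of -0.42. Over all tested genes 20.9% rose and 25.1% fell in H4K91R, and 22.5% rose and 23.8% fell in H4K91Q. H4K91Q gave 5 rises and 1 fall of 6 for paralogues 1 to 3, with a median of 0.71. For paralogues 4 to 8 it gave 12 rises and 0 falls of 15, with a median of 1.05. Paralogues 9 to 13 had 1 rise and 3 falls of 11 there, with a median of -0.05. The falls of paralogues 9 to 13 were near the share of all tested genes in both mutants. Across genes, which are not independent and share libraries, the change against paralogue number had Pearson's r of -0.56 and Spearman's rho of -0.55 in H4K91R, and -0.46 and -0.50 in H4K91Q (32 genes). Within clusters in H4K91R Spearman's rho was -0.43 for a (8 genes), -0.32 for b (9), -0.86 for c (7) and -0.24 for d (8). In H4K91Q rho was -0.50 for a, -0.23 for b, -0.79 for c and -0.24 for d. Pearson's r for d was 0.13 in H4K91Q, of the opposite sign.

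**Figure D2:**
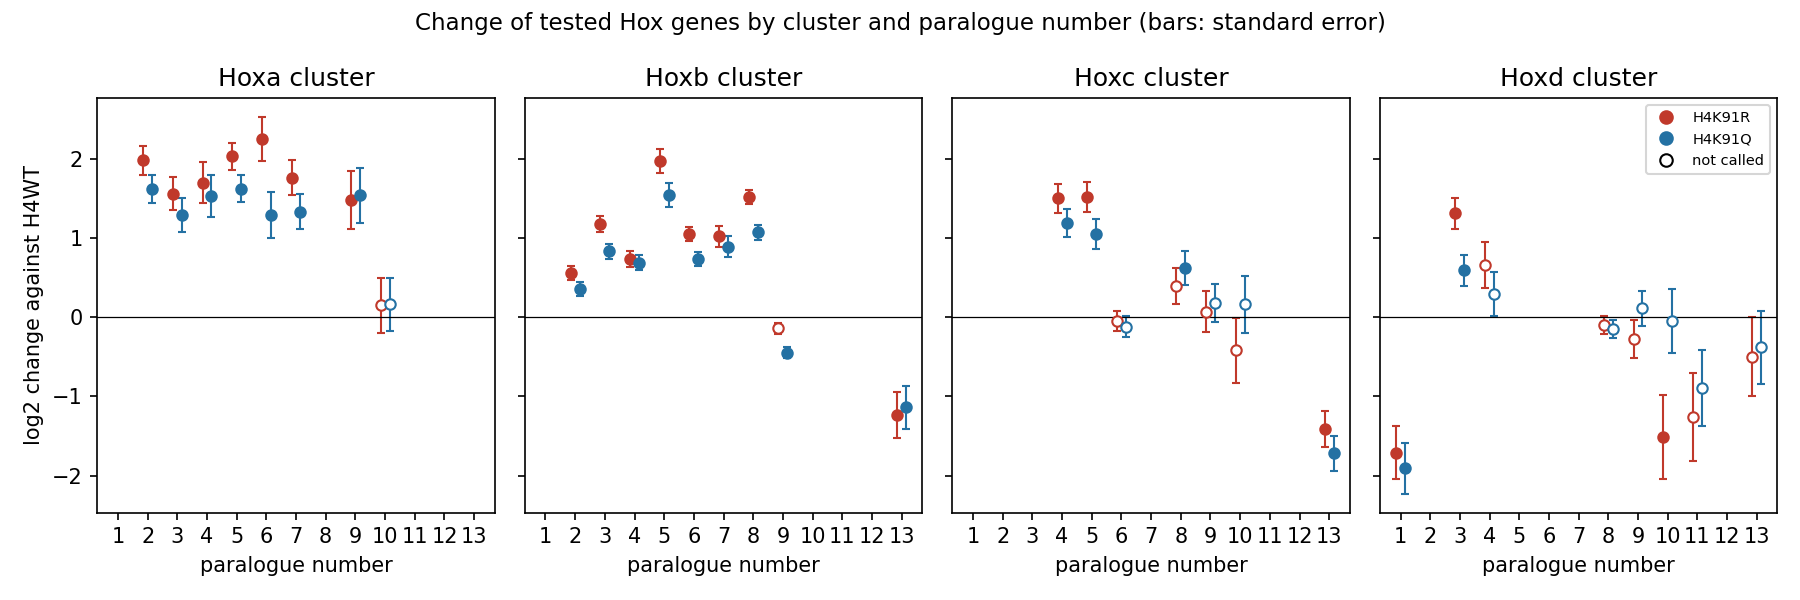
Log2 change against H4WT (y axis, bars are standard errors) by paralogue number (x axis) in each cluster, for the 32 tested members. Filled points were called and open points were not. In clusters a and b the called rises run from paralogue 2 to 9 and from 2 to 8, while Hoxb13, Hoxc13 and Hoxd1 lie below -1 in both mutants.

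Cluster a changed most. Of its 8 tested genes 7 rose in each mutant and 0 fell, with medians of 1.73 in H4K91R and 1.43 in H4K91Q. Beside these, 20.9% of all tested genes rose in H4K91R and 22.5% in H4K91Q, and 25.1% and 23.8% fell. Hoxa2, which gives the neural crest of the second branchial arch its identity, had 2.77, 2.67 and 2.57 CPM in H4WT, 8.86, 11.8 and 11.3 in H4K91R, and 6.82, 8.62 and 9.32 in H4K91Q. Each mutant library was thus above each H4WT library. Its change was 1.98 ± 0.18 in H4K91R (adjusted p = 2.21e-06) and 1.62 ± 0.18 in H4K91Q (adjusted p = 1.38e-05).

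Hoxa5, a gene of the cervical cord that is also needed in the lung, had the highest levels of the cluster. It stood at 10.7, 15 and 13.7 CPM in H4WT, at 42.9, 59.1 and 64.5 in H4K91R, and at 36.0, 47.6 and 40.4 in H4K91Q. The mutant libraries did not overlap with H4WT, while those of the mutants overlapped each other. Hoxa5 rose by 2.03 ± 0.17 in H4K91R (adjusted p = 9.68e-07) and by 1.62 ± 0.17 in H4K91Q (7.33e-06). Hoxa6, its neighbour, had the largest rise of any member in H4K91R, 2.25 ± 0.28 (adjusted p = 2.67e-05), from 0.601, 1.37 and 0.980 CPM to 4.43, 5.58 and 6.01. In H4K91Q Hoxa6 had 2.10, 2.79 and 3.34 CPM, which lay between the other groups without overlap, and a rise of 1.29 ± 0.29 (0.00272).

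Hoxa3, Hoxa4 and Hoxa7 rose by 1.56 to 1.76 in H4K91R and by 1.29 to 1.53 in H4K91Q. Hoxa9, known from blood stem cells and the thoracic to lumbar axis, was the only member of paralogues 9 to 13 that rose, from 0.601, 0.370 and 0.245 CPM to 1.21, 1.02 and 1.08 in H4K91R and 1.16, 1.35 and 0.937 in H4K91Q. That rise was 1.48 ± 0.37 (adjusted p = 0.00504) and 1.54 ± 0.35 (0.00286), and it rests on 17 counts over the H4WT libraries. Hoxa10, the next gene, was not called: it had 1.32, 1.0 and 1.22 CPM in H4WT, 0.978, 1.49 and 1.38 in H4K91R, and 1.42, 0.747 and 1.64 in H4K91Q, which overlap throughout. Its differences were 0.15 ± 0.35 and 0.16 ± 0.33.

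In cluster b all 7 tested genes from Hoxb2 to Hoxb8 rose in both mutants. Hoxb8, which is known for spinal and blood progenitor roles, had the highest level in both mutants. H4WT stood at 37.9, 36.0 and 38.8 CPM, H4K91R at 92.4, 118 and 111, and H4K91Q at 74.6, 82.8 and 78.7. The 3 groups did not overlap. Its change was 1.52 ± 0.09 in H4K91R (adjusted p = 1.31e-07) and 1.07 ± 0.09 in H4K91Q (2.04e-06). Hoxb5, known for enteric neural crest and vagal roles, rose most in the cluster, by 1.97 ± 0.15 in H4K91R (3.98e-07) and 1.54 ± 0.15 in H4K91Q (3.55e-06). Its libraries read 6.61, 8.22 and 7.72 CPM in H4WT, 23.8, 34.8 and 32.2 in H4K91R, and 22.4, 22.3 and 22.1 in H4K91Q.

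The other 5 genes of that run rose less. Hoxb2, a hindbrain gene, had 21.9, 18.5 and 21.8 CPM in H4WT, 30.9, 28.9 and 30.5 in H4K91R, and 25.8, 27.0 and 26.0 in H4K91Q, changes of 0.56 ± 0.09 (adjusted p = 2.70e-04) and 0.36 ± 0.09 (0.00560). Those groups did not overlap, and this was the smallest called rise of the set. Hoxb3 rose by 1.18 ± 0.10 and 0.83 ± 0.10, Hoxb4 by 0.73 ± 0.10 and 0.69 ± 0.10, Hoxb6 by 1.05 ± 0.09 and 0.73 ± 0.09, and Hoxb7 by 1.02 ± 0.13 and 0.89 ± 0.13, in H4K91R and H4K91Q in turn.

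The run ended at Hoxb9, a thoracic gene and the Hox gene with most counts in H4WT. Hoxb9 had 90.5, 86.5 and 102 CPM in H4WT, 80.4, 84.9 and 86.9 in H4K91R, and 68.3, 67.8 and 66.7 in H4K91Q. H4K91R overlapped with H4WT, and H4K91Q lay below both. The difference was -0.14 ± 0.07 in H4K91R (adjusted p = 0.134), whose sign turned with library size scaling (0.04), and Hoxb9 fell by 0.45 ± 0.07 on the log2 scale in H4K91Q (adjusted p = 2.47e-04). Hoxb13, a tail bud and prostate gene set apart from the rest of the cluster, had 4.45, 2.70 and 4.53 CPM in H4WT, 1.61, 1.02 and 2.07 in H4K91R, and 1.84, 1.64 and 1.46 in H4K91Q. Each mutant library was below each H4WT library, with changes of -1.24 ± 0.29 (0.00351) and -1.14 ± 0.27 (0.00389).

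**Figure D3:**
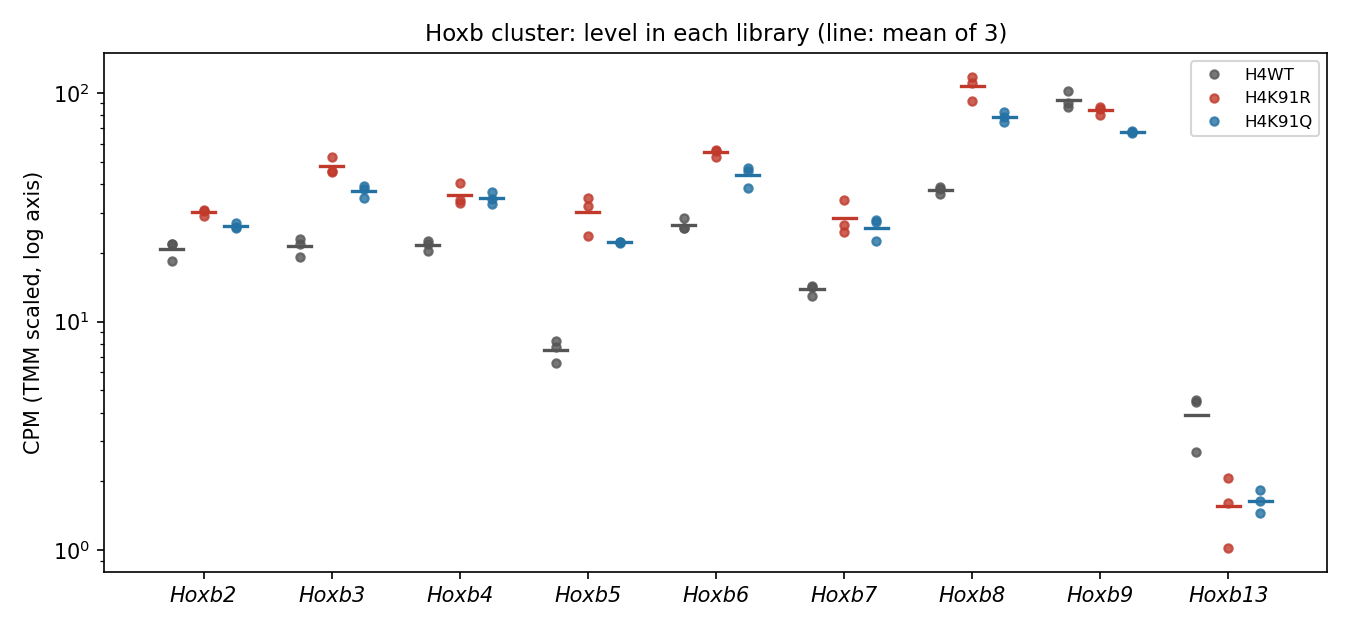
CPM of the 9 tested Hoxb genes in each library (y axis, log scale), with a short line at the mean of 3 libraries per group. From Hoxb2 to Hoxb8 the mutant libraries lie above H4WT, at Hoxb9 those of H4K91Q lie below it, and at Hoxb13 those of both mutants do.

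Hoxb8 had the largest rise in CPM of the set, and the letters before 1 of its RefSeq starts are shown to place the motifs searched for in this family. On the d cluster, Hoxd3 rose and Hoxd1, the next gene of that cluster in this set, fell, so the windows of both are given too. Each is the 250 bases before a start in GRCm38.p6, the patch release of the build named for these counts, from RefSeq, 5′ to 3′ on the gene's strand (plus for all 3), at chr11:96281655-96281904, chr2:74711743-74711992 and chr2:74762730-74762979. Capitals mark matches on either strand to any of 4 short motifs. The core motif of nuclear receptors, retinoic acid receptors among them, is AGGTCA. The motif that Hox proteins bind jointly with their Pbx partners was searched for as TGATNNAT. The motif searched for the caudal family of Cdx factors was TTTATG. The TATA box, which positions the start of transcription at some genes, was searched for as TATAAA.
Hoxb8: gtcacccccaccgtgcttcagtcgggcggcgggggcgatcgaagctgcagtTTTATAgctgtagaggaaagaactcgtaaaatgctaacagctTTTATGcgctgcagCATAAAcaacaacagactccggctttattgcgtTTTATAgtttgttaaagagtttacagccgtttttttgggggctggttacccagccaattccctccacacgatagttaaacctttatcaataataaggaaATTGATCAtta
Hoxd3: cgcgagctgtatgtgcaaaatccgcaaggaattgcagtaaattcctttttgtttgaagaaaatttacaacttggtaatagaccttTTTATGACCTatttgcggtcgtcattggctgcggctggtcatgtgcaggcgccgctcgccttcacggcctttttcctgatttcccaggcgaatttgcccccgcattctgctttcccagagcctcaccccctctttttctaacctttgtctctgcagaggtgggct
Hoxd1: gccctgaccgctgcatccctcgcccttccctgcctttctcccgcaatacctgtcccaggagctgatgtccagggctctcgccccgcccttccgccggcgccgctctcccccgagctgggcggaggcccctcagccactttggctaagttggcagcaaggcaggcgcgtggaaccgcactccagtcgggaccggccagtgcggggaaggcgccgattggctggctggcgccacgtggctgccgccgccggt

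The Hoxb8 window held 2 Cdx matches, 2 matches to the TATA box letters and 1 Hox with Pbx match. Both of the TATA box matches read TTTATA, so TATAAA lies there on the strand opposite to the gene. The Hoxd3 window held 1 Cdx match and 1 nuclear receptor match, which overlap, and that of Hoxd1 held none of the 4. RefSeq windows were found for 22 of the 38 members (24 windows). The nuclear receptor motif was in 6 of these (25.0%) and in 14% of 32851 windows of all genes. The Hox with Pbx motif was in 16.7% and 7.68%, the Cdx motif in 20.8% and 10.8%, and the TATA box in 16.7% and 12.4%. The Hox windows had a median of 12.5 CG dinucleotides against 6 over all genes. A match describes letters and is no measured binding site.

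Cluster c split within its middle. Hoxc4 and Hoxc5, at its head end, rose in both mutants. Hoxc4, a cervical gene, had 4.69, 5.59 and 5.27 CPM in H4WT, 11.2, 17.0 and 17.2 in H4K91R, and 13.5, 10.9 and 11.8 in H4K91Q, with changes of 1.5 ± 0.18 (adjusted p = 2.00e-05) and 1.19 ± 0.18 (1.36e-04). Hoxc5 had 3.49, 4.37 and 4.04 CPM in H4WT, then 9.90, 12 and 13.4, and 6.65, 9.91 and 8.85, changes of 1.52 ± 0.19 (2.58e-05) and 1.05 ± 0.19 (5.13e-04). Both genes had every mutant library above every H4WT library.

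Hoxc6, the next gene and known from the brachial cord, was at 12.3, 11.9 and 13.6 CPM in H4WT, 14.2, 10.1 and 11.6 in H4K91R, and 11.2, 11 and 12.2 in H4K91Q. These overlap, and its differences, -0.05 ± 0.13 and -0.12 ± 0.13, were not called and turned sign with library size scaling (0.14 and 0.05). Hoxc8, Hoxc9 and Hoxc10 were not called in H4K91R (0.39 ± 0.23, 0.07 ± 0.26 and -0.42 ± 0.41). In H4K91Q Hoxc8 rose by 0.62 ± 0.22 (adjusted p = 0.0344). That call was lost under 7 of 17 alternatives, with an adjusted p of 0.00911 to 0.110 over them. Without 1 library the call ended when H4WT replicate 1, 2 or 3 or H4K91Q replicate 1 or 2 was left out (0.0949, 0.0878, 0.0547, 0.110 and 0.0781).

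Hoxc13, a hair and nail keratin regulator and the tail end of the cluster, had 6.85, 9.56 and 9.92 CPM in H4WT, 3.57, 2.44 and 4.04 in H4K91R, and 2.10, 2.59 and 3.52 in H4K91Q. All 6 mutant libraries were below all 3 of H4WT. It fell by 1.41 ± 0.23 on the log2 scale in H4K91R (adjusted p = 2.40e-04) and by 1.72 ± 0.22 in H4K91Q (4.35e-05). Hoxc13 had more H4WT counts (396) than any gene from Hoxc8 to Hoxc12, where 2 to 117 counts were found.

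Cluster d had the fewest rises: 1 of its 8 tested genes rose in each mutant, and 2 fell in H4K91R and 1 in H4K91Q. Over all tested genes 20.9% rose and 25.1% fell in H4K91R, and 22.5% rose and 23.8% fell in H4K91Q. With 8 genes, the counts of cluster d were near those shares. Hoxd3, which patterns the upper neck, rose from 3.73, 3.59 and 5.14 CPM in H4WT to 8.0, 11.6 and 10.6 in H4K91R, a change of 1.31 ± 0.20 (adjusted p = 1.34e-04). In H4K91Q Hoxd3 read 6.18, 6.88 and 5.10 CPM, where 1 library was below the highest of H4WT, with a change of 0.59 ± 0.20 (0.0264). This second call ended without H4WT replicate 1 or 2 or H4K91Q replicate 1 or 2 (adjusted p = 0.0707, 0.155, 0.0614 and 0.0958), and ran from 0.00621 to 0.155 over the alternatives.

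Hoxd1, known from nociceptive sensory neurons, went the other way from the other members of paralogues 1 to 3. It had 7.70, 5.0 and 6.49 CPM in H4WT, 2.76, 1.26 and 1.38 in H4K91R, and 0.943, 2.09 and 1.99 in H4K91Q. The highest mutant library was below the lowest H4WT library. Hoxd1 fell by 1.71 ± 0.33 on the log2 scale in H4K91R (adjusted p = 9.21e-04) and by 1.91 ± 0.32 in H4K91Q (3.19e-04).

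The genes Hoxd4, Hoxd8, Hoxd9, Hoxd11 and Hoxd13 had no call in either mutant. Hoxd4 had 2.53, 1.74 and 0.857 CPM in H4WT, 2.99, 2.44 and 2.66 in H4K91R, and 2.19, 2.39 and 1.70 in H4K91Q (0.66 ± 0.29, adjusted p = 0.0798, and 0.29 ± 0.28). In H4K91R it was called with library size scaling (0.0288) and without H4WT replicate 1 (0.0304). Hoxd8, the d gene with the highest level, stood at 13.9, 13.6 and 11.9 CPM in H4WT, 12.5, 12.7 and 11.5 in H4K91R, and 11, 12.7 and 12.1 in H4K91Q, differences of -0.10 ± 0.11 and -0.15 ± 0.11 that turned sign with library size scaling (0.08 and 0.02). Hoxd9 had differences of -0.28 ± 0.24 and 0.11 ± 0.22, Hoxd11 of -1.26 ± 0.56 and -0.90 ± 0.48, and Hoxd13, a digit gene, of -0.50 ± 0.50 and -0.38 ± 0.46.

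Hoxd10, a lumbar motor neuron gene, fell in H4K91R, from 0.842, 0.593 and 0.612 CPM to 0.115, 0.472 and 0.0985, while H4K91Q had 0.600, 0.598 and 0.703. The change was -1.51 ± 0.53 (adjusted p = 0.0340) and rests on 9 counts in H4K91R. It was lost under 8 of 14 alternatives, with an adjusted p from 0.00644 to 0.161, among them each of the 5 fits in which H4WT replicate 1, 2 or 3 or H4K91R replicate 1 or 3 was left out (0.0823, 0.0665, 0.0589, 0.161 and 0.0999). In H4K91Q its difference was -0.05 ± 0.40.

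The change within a cluster can be read without any scaling from the ratio of counts of 2 members in 1 library. The ratio of Hoxb8 to Hoxb9 was 0.418, 0.416 and 0.381 in H4WT, 1.15, 1.39 and 1.28 in H4K91R, and 1.09, 1.22 and 1.18 in H4K91Q. Every mutant library had more Hoxb8 than Hoxb9 counts and every H4WT library fewer. Hoxc5 to Hoxc6 gave 0.284, 0.368 and 0.297 in H4WT, 0.696, 1.18 and 1.15 in H4K91R, and 0.592, 0.900 and 0.726 in H4K91Q. Hoxd3 to Hoxd8 gave 0.267, 0.265 and 0.433, then 0.641, 0.907 and 0.923, then 0.560, 0.543 and 0.420, so that 1 H4K91Q library lay within the H4WT range. Hoxa9 to Hoxa10, with few counts, gave 0.455, 0.370 and 0.200, then 1.24, 0.684 and 0.786, then 0.818, 1.80 and 0.571. These pairs were chosen after the values were seen, and a ratio shows unequal change, not which gene changed.

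**Figure D4:**
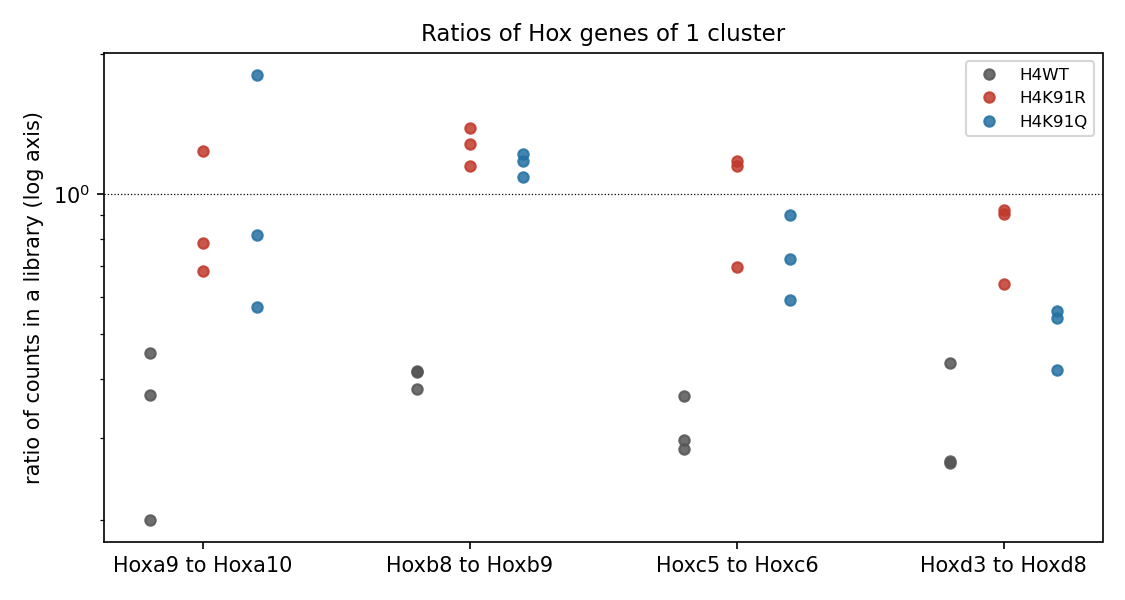
Ratio of the counts of 2 Hox genes of 1 cluster in each library (y axis, log scale; the dotted line is a ratio of 1). Hoxb8 to Hoxb9 is 0.381 to 0.418 in H4WT and 1.09 to 1.39 in the 6 mutant libraries.

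Summed over all 38 members, the level was 340 ± 14.2 CPM in H4WT (mean ± SD, n = 3), 598 ± 52.2 in H4K91R and 482 ± 16.3 in H4K91Q. Paralogues 4 to 8 made up most of the difference, with 165 ± 1.34, 390 ± 43.1 and 311 ± 16.6 CPM. Paralogues 9 to 13 had 117 ± 10.1, 98.4 ± 4.18 and 83.4 ± 0.534 CPM, most of it Hoxb9. Their share of all Hox counts was 33.6%, 33.3% and 36.1% in the H4WT libraries, 17.5%, 15.7% and 16.2% in H4K91R, and 17.7%, 16.5% and 17.8% in H4K91Q. Cluster d summed to 30.4 ± 1.71, 30.2 ± 1.58 and 26.4 ± 2.59 CPM, while cluster a had 26.0 ± 3.33, 98.0 ± 17.9 and 74.2 ± 8.27.

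The mutants were also compared directly, which tests whether their differences from H4WT differ. Of the 32 tested members 6 were lower in H4K91Q than in H4K91R, beside 2.78% of all tested genes, and 0 were higher, beside 2.37%. Between the mutants 5.16% of all tested genes were called in either direction. They were Hoxb8 (-0.44 ± 0.09, adjusted p = 0.0154), Hoxb9 (-0.31 ± 0.07, 0.0291), Hoxa6 (-0.96 ± 0.23, 0.0321), Hoxd3 (-0.72 ± 0.18, 0.0360), Hoxb6 (-0.33 ± 0.08, 0.0436) and Hoxb3 (-0.35 ± 0.09, 0.0445). All 6 lay near the threshold, and 0 of them were called under every alternative. The count was 0 without H4K91R replicate 2 or without H4K91Q replicate 1, 1 without H4K91R replicate 3 or without H4K91Q replicate 2, and 3 without H4K91Q replicate 3 or with libraries thinned to equal totals. The fitted difference was below 0 for 22 of the 32 members, beside 49.0% of all tested genes, with a median of -0.20 against 0.01. Libraries did not overlap for 9 members that were lower in H4K91Q (12.8% of all tested genes) and 1 that was higher (12.5%).

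Factors that act with or upstream of Hox genes were counted from lists, and each count is to be read against all tested genes, of which 20.9% rose and 25.1% fell in H4K91R, and 22.5% rose and 23.8% fell in H4K91Q. The TALE cofactors Pbx, Meis and Pknox bind DNA with Hox proteins. Of 9 tested, 7 rose and 1 fell in H4K91R, and 6 rose and 0 fell in H4K91Q. Pbx3 rose from 26.8 ± 0.672 to 58.7 ± 5.29 and 52.0 ± 2.71 CPM (1.13 ± 0.09 and 0.96 ± 0.08), and Pknox2 by 1.08 ± 0.15 and 0.71 ± 0.14. Meis2 rose by 0.51 ± 0.08 and 0.39 ± 0.08, and Meis3 by 0.66 and 0.35.

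In the list of upstream patterning regulators 15 of 21 genes were tested. In H4K91R 6 of these rose and 2 fell, and in H4K91Q 9 rose and 3 fell. Wnt5b rose by 1.29 ± 0.22 and 1.55 ± 0.21, Gata6 changed by -0.48 ± 0.08 and -0.70 ± 0.08, and Fgf4, a ligand of pluripotent cells, rose in H4K91Q (1.95, adjusted p = 0.00225) but was not called in H4K91R (-1.39, 0.0963). Of the tail bud and early axis genes of this list, Cdx1, Cdx4, Tbx6, Nkx1-2, Wnt3a and Fgf17 had group means under 1 CPM and were not tested. Cdx2 had 16.2 ± 2.29, 17.2 ± 2.45 and 20.8 ± 0.999 CPM in H4WT, H4K91R and H4K91Q. It rose in H4K91Q (0.33 ± 0.12, adjusted p = 0.0464) and was not called in H4K91R (0.05 ± 0.13). T had 2.30 ± 1.25, 1.16 ± 0.740 and 6.14 ± 1.79 CPM. It rose in H4K91Q (1.27 ± 0.37, 0.0125) and was not called in H4K91R (-1.16 ± 0.48, 0.0671). The ligand gene Wnt8a had 0.256 ± 0.223, 0.266 ± 0.0616 and 1.84 ± 0.594 CPM in H4WT, H4K91R and H4K91Q. Wnt8a rose in H4K91Q against H4WT (2.5 ± 0.47, adjusted p = 7.56e-04) and was higher there than in H4K91R (2.70 ± 0.48, 0.00956). Fgf8 had 0.681 ± 0.360, 0.474 ± 0.143 and 1.57 ± 0.642 CPM and was called between the mutants (1.68 ± 0.45, 0.0485) but not against H4WT. Cdx2, T, Wnt8a and Fgf8 were named after their values were seen.

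Of 20 tested genes of the retinoic acid pathway 8 rose and 4 fell in H4K91R (beside 20.9% and 25.1% of all tested genes), and 11 rose and 4 fell in H4K91Q (beside 22.5% and 23.8%). Aldh1a2, which makes retinoic acid, rose from 3.49 ± 0.769 to 9.01 ± 0.476 and 7.25 ± 0.205 CPM (1.38 ± 0.16 and 1.07 ± 0.15). Cyp26a1, which breaks it down, had 89.7 ± 5.27, 45.9 ± 4.54 and 44.0 ± 5.02 CPM (-0.96 ± 0.10 and -1.03 ± 0.10). Aldh1a1, another synthesis enzyme, fell by 1.42 ± 0.25 and 1.47 ± 0.24 on the log2 scale, and Aldh1a3, a further one, rose by 1.67 ± 0.28 and 0.83 ± 0.29. Cyp26b1, another breakdown enzyme, rose in H4K91Q (1.51 ± 0.30, adjusted p = 0.00108) and was not called in H4K91R (0.44 ± 0.33). These last 3 were named after their values were seen. The receptor gene Rxra rose by 0.56 ± 0.07 and 0.60 ± 0.07, and Stra6, the retinol transporter, changed by -0.47 ± 0.09 and -0.82 ± 0.09. Of 33 Polycomb and trithorax regulators 10 rose and 3 fell in H4K91R, and 11 rose and 5 fell in H4K91Q, with medians of 0.03 and 0.10. Over all tested genes 46.0% and 46.3% were called in either direction, and with both directions together these counts are near the background. By direction, rises were above the shares of all tested genes (20.9% and 22.5%) and falls below them (25.1% and 23.8%). Phf19, a Polycomb accessory protein, rose by 1.46 ± 0.13 and 1.44 ± 0.13, Cbx2 by 0.79 ± 0.10 and 0.60 ± 0.10, Ring1 by 0.69 ± 0.11 and 0.65 ± 0.10 and Phc1 by 0.45 ± 0.09 and 0.53 ± 0.09. The 3 that fell in H4K91R were Eed (-0.42 ± 0.09), Aebp2 (-0.25 ± 0.07) and Suz12 (-0.26 ± 0.07). In H4K91Q Eed (-0.28 ± 0.09) and Aebp2 (-0.21 ± 0.07) fell and Suz12 was not called (-0.07 ± 0.07). Eed, Aebp2 and Suz12 were named after their values were seen.

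Of 7 tested ParaHox and related homeobox genes 6 rose in each mutant and 0 fell, among them Meox2 (1.67 ± 0.17 and 1.84 ± 0.17), Meox1 (1.17 ± 0.30 and 1.11 ± 0.30), Gbx2 (1.33 ± 0.23 and 1.24 ± 0.22) and Gsx2 (1.20 ± 0.39 and 1.03 ± 0.38). Regions in front of the Hox domain were read from forebrain and midbrain factors. Of 10 tested 6 rose and 3 fell in H4K91R, and 6 rose and 2 fell in H4K91Q. En2 and Pax2, of the midbrain and hindbrain boundary, rose by 2.08 ± 0.22 and 2.34 ± 0.20 in H4K91R and by 1.6 ± 0.22 and 1.48 ± 0.20 in H4K91Q. Otx2, of the forebrain and midbrain, changed by -1.84 ± 0.49 in H4K91R and 2.05 ± 0.31 in H4K91Q. Of 13 tested limb and lateral mesoderm factors, which also hold Hox-expressing cells, 3 rose and 2 fell in H4K91R, near or below the 20.9% and 25.1% of all tested genes, and 6 rose and 2 fell in H4K91Q, beside 22.5% and 23.8%. Osr2 rose by 2.44 ± 0.24 and 2.45 ± 0.23, Prrx2 by 1.32 ± 0.15 and 1.62 ± 0.14 and Osr1 by 1.12 and 1.40, and Foxf2 changed by -1.68 ± 0.18 and -1.28 ± 0.16.

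Transcripts other than the Hox genes within the spans of the members were few. Of 17 such entries, 6 were tested, and 3 rose and 1 fell in each mutant. Beside these, 20.9% of all tested genes rose and 25.1% fell in H4K91R, and 22.5% rose and 23.8% fell in H4K91Q. Mira, a noncoding transcript at 52214491 to 52215288 of chromosome 6, beside Hoxa7, had 2.40, 2.56 and 2.57 CPM in H4WT, 8.34, 9.52 and 9.95 in H4K91R, and 8.45, 8.52 and 7.38 in H4K91Q. Its change was 1.87 ± 0.15 (adjusted p = 8.92e-07) and 1.69 ± 0.15 (2.39e-06). The antisense transcripts Hoxaas2 and Hoxaas3 rose by 1.62 ± 0.25 and 0.98 ± 0.36 in H4K91R and by 1.22 ± 0.25 and 1.09 ± 0.33 in H4K91Q. Without a recorded strand setting their reads cannot be told apart from those of the Hox genes across from them. Gm53, a transcript between Hoxb13 and Hoxb9 (chromosome 11, 96251660 to 96264484), moved in the direction of Hoxb13. It had 15.5, 16.4 and 18.4 CPM in H4WT, 6.79, 5.35 and 4.53 in H4K91R, and 5.96, 5.88 and 7.15 in H4K91Q (-1.56 ± 0.15, 3.87e-06, and -1.41 ± 0.15, 7.36e-06).

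Hoxb5os and Haglr, opposite to Hoxb and Hoxd genes, were not called (0.06 ± 0.18 and 0.55 ± 0.22 in H4K91R, -0.27 ± 0.17 and 0.40 ± 0.22 in H4K91Q). Of 6 tested transcripts outside the clusters but within 100 kb, 0 were called in H4K91R. In H4K91Q the low-level Halr1 (1.6 ± 0.43, adjusted p = 0.00799) and Calcoco2 (1.71 ± 0.49, 0.0112) rose and Hotairm1 (-0.75 ± 0.27, 0.0377) fell, and all were named after their values were seen. Mtx2 and Lnpk, which flank cluster d and are no Hox genes, had differences of -0.07 ± 0.10 and 0.13 ± 0.09 in H4K91R and of -0.02 ± 0.09 and 0.03 ± 0.09 in H4K91Q, and were not called. Of 20 tested entries of the list of cluster neighbours and antisense transcripts, 3 rose and 2 fell in H4K91R and 4 rose and 2 fell in H4K91Q, fewer than the 46.0% and 46.3% called over all tested genes. Its named members outside the clusters were Snx10 (-0.44 and -0.21), Tax1bp1 (-0.36 and -0.24) and Hnrnpa1 (0.13, not called, and 0.27).

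Cell type markers also differed between the groups, in directions that depended on the list. In bulk RNA, fewer cells of a type and less RNA per cell cannot be told apart. Counts of called markers, here and in the next paragraph, are to be read against all tested genes. Of these 20.9% rose and 25.1% fell in H4K91R, and 22.5% rose and 23.8% fell in H4K91Q. The summed neuron markers, 14 of 14 tested, ran from 428 to 529 CPM in H4WT, 1201 to 1467 in H4K91R and 979 to 1056 in H4K91Q, with 12 rises and 0 falls in H4K91R and 12 and 1 in H4K91Q. Neural progenitor markers (12 of 12 tested) ran from 281 to 347, 760 to 876 and 560 to 645 CPM, with 11 rises and 0 falls, and 11 and 1. Smooth muscle markers, of which 11 of 11 fell in each mutant, ran from 4312 to 5172, 571 to 865 and 548 to 615 CPM.

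Fibroblast and mesenchyme markers, the most abundant of the lists, ran from 6200 to 7244, 7015 to 7760 and 7606 to 8277 CPM, with 5 rises and 2 falls of 12 in H4K91R and 6 and 2 in H4K91Q. Pluripotency markers ran from 307 to 395, 195 to 222 and 338 to 493 CPM (0 rises and 10 falls of 12, then 8 and 1). Epithelium markers ran from 1364 to 1487, 765 to 861 and 845 to 980 CPM (0 rises and 7 falls of 8 tested in each mutant). Endoderm markers ran from 826 to 946, 778 to 837 and 732 to 754 CPM (2 rises and 2 falls of 10 tested, then 2 and 3). These endoderm counts were near the shares of all tested genes. No marker of these lists had 0 counts in all libraries, and Afp, Apoa1, Krt5 and Trp63 had means under 1 CPM. Neuron and progenitor markers were thus present in every library. The mesenchyme sum was above the neuron sum in every library, and the smooth muscle sum was above it in H4WT and below it in both mutants. The part of these cell types in the Hox differences was not tested.

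Within H4K91R, replicate 1 was the lowest library for 14 of the 17 members that rose, which are not independent of each other. Its summed neuron markers (1201 CPM, beside 1428 and 1467) and its neural progenitor markers (760, beside 815 and 876) were also the lowest of the group, and its smooth muscle markers (865, beside 571 and 595) the highest. The summed level of paralogues 4 to 8 was 341 CPM there and 408 and 421 in the other H4K91R libraries, and 163 to 166 in H4WT. Without that library 17 members rose in H4K91R. How often it was the lowest of its group over all tested genes was not counted. In H4K91Q, replicate 1 had the lowest neuron (979 CPM) and neural progenitor (560) sums, but also the lowest smooth muscle sum (548). It was the lowest H4K91Q library for 8 of the same 17 members. The part of these cell types in the difference between libraries was not tested.

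**Figure D5:**
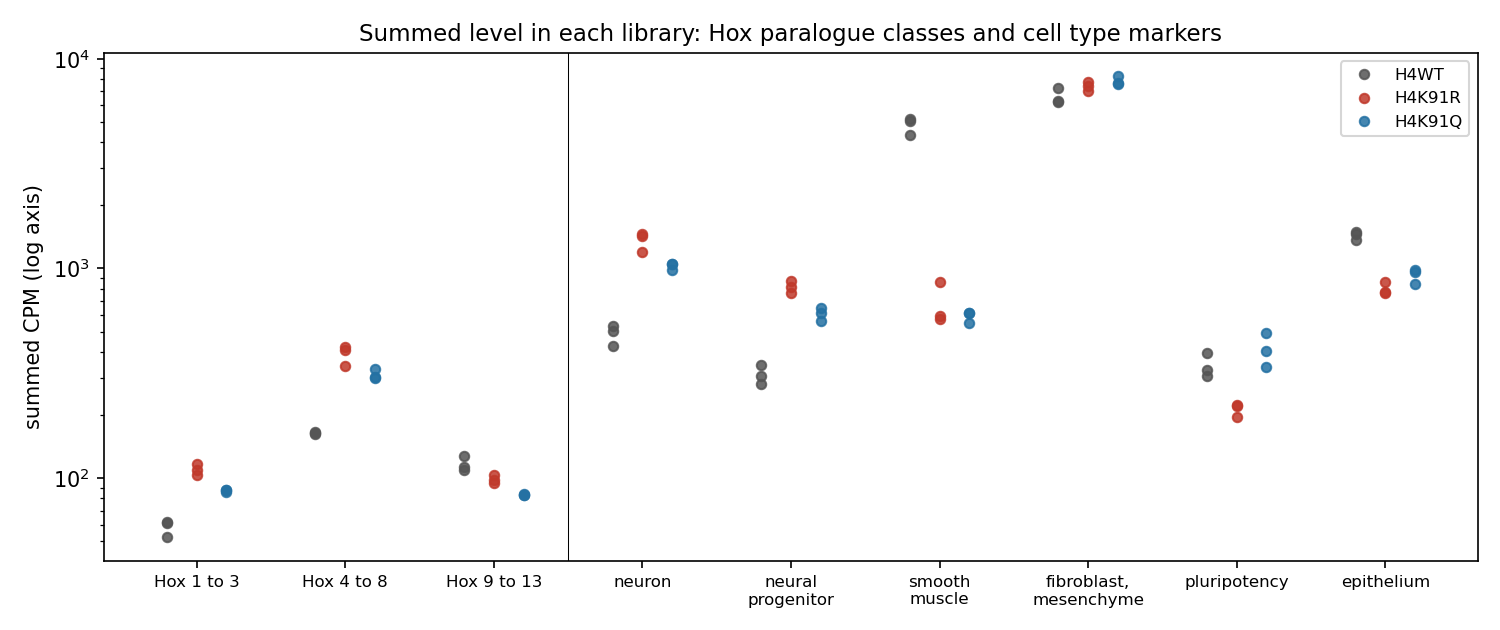
Summed CPM in each library (y axis, log scale) of the 3 Hox paralogue classes, left of the line, and of 6 marker lists, right of it. Paralogues 4 to 8 stand at 163 to 166 CPM in H4WT and at 300 to 421 in the mutants, neuron markers are higher there too, and smooth muscle markers are lower in the mutants.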

How the data were processed

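The deposited table holds expected counts per gene, whole numbers, for 9 libraries. Salmon 0.8.2, DESeq2 and mm10 are named, without roles, per the submitters' processing notes. Per the labels' protocols, RNeasy-isolated RNA went into NEBNext Ultra II libraries. The sources used here do not name the annotation, the rounding or how strand was handled, and estimated counts of overlapping or similar genes are uncertain. Entrez IDs were matched to RefSeq GRCm38.p6 (24045 of 24100), and exon lengths came from GENCODE M21 (GRCm38).

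Genes were filtered with filterByExpr by group (minimum count 10) and scaled by TMM. edgeR 4.0.16 (R 4.3.3) fitted 1 mean per group to all 9 libraries (quasi-likelihood, two-sided, Benjamini-Hochberg over 14761 genes). It was tested on simulated data. The alternatives used DESeq2 1.42.0, limma 3.58.1, other scaling, no filter, equal depth, a replicate block and left-out libraries, and were run for the Hox genes only. Members and lists were chosen with earlier results of these data known. Every Hox member may be named; other lists give up to 4 called genes of at least 1 CPM with the smallest joint p, or the 2 highest where none is called, and a few genes chosen by this rule are not reported here. Motifs were searched in the 250 bases before RefSeq starts, leaving off the 50 after them, which the plan had included. Total counts limit precision, and intervals for 0 counts cover counting error only.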

Additional observations from a re-analysis of the deposited data

How the results depend on the processing

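The counts of members called against H4WT and in the joint test stayed within 1.5 times under every alternative run. Leaving out 1 library gave 17 to 18 rises and 3 to 4 falls in H4K91R, 16 to 18 rises and 4 falls in H4K91Q, and 20 to 22 joint calls. Of 21 calls in H4K91R 20 were kept under every alternative that tested the gene, all but Hoxd10, and of 22 in H4K91Q 20 were, all but Hoxc8 and Hoxd3. Between the mutants 0 to 6 members were lower in H4K91Q when 1 library was left out, and 3 with thinned libraries, beside 6. Restricting the fit to the compared groups gives no joint test. Medians of clusters and paralogue classes moved by at least their spread between replicate libraries in 21 cases and by less in 336. That of paralogues 9 to 13 became -0.14 in H4K91R without H4K91R replicate 1, beside -0.42. In H4K91Q it became 0.11 with library size scaling and -0.22 without H4WT replicate 2, beside -0.05. The cluster d median became -0.07 in H4K91R with only the compared groups fitted, beside -0.39. Library size scaling moved the median of all genes to 0.15 in H4K91R and 0.18 in H4K91Q. With it the differences of Hoxb9, Hoxc6 and Hoxd8 in H4K91R became 0.04, 0.14 and 0.08, and those of Hoxc6, Hoxd8 and Hoxd10 in H4K91Q 0.05, 0.02 and 0.11. Hoxc9 turned to -0.18 in H4K91R and -0.12 in H4K91Q with thinning. With 1 library left out the difference ran from -0.01 to 0.35 for Hoxa10, -0.20 to 0.06 for Hoxc6 and -0.10 to 0.28 for Hoxc9 in H4K91R. In H4K91Q it ran from -0.04 to 0.42 for Hoxa10, -0.01 to 0.30 for Hoxc9, -0.22 to 0.37 for Hoxc10, -0.03 to 0.22 for Hoxd9 and -0.21 to 0.07 for Hoxd10. The cause of these sign changes was not tested.

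Replicate numbers did not pair the libraries throughout: same-numbered libraries deviated together with correlations of -0.22 to 0.24, and differently numbered ones with -0.35 to 0.34. The replicate 1 libraries, however, were positively correlated in every pair (0.22, 0.24 and 0.22). Whether they shared a batch was not tested. With the replicate block 17 members rose and 3 fell in H4K91R, 18 rose and 4 fell in H4K91Q, 21 were called jointly, and 9 were lower and 0 higher in H4K91Q than in H4K91R. Hoxc9 turned to -0.01 in H4K91R with the block. Depth limits the 6 untested members and Hoxa9, Hoxd10, Hoxd11 and Hoxd13, which had 17 to 40 counts over the H4WT libraries.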
